A study of Mus musculus with 23 samples.

Results

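Polycomb proteins and the enzymes that remove their mark on histone H3 lysine 27 were followed at the RNA level through 10 genes: EZH1, EZH2, EED, SUZ12, JARID2, BMI1, RING1, RNF2, CBX7 and KDM6B. The genes were taken by name, with earlier results of these data known, and no threshold on a value entered the choice. All 10 were found among 15881 expression profiles with a value above 0, each under a single entry, with estimated counts of 163.0 to 18947.8 per library. The table gives mouse genes under human symbols, which are kept here. RNA was sequenced from 7 mesenteric lymph node (MLN) tumors and 7 spleen tumors, all from IL6Myc transgenic mice, whose tumors the labels describe as malignant plasma cells. The tumors came from 8 mice, of which 6 gave a tumor at each site. Controls were B cells of WT Balb/c mice, either quiescent (4 libraries) or cultured for 16 hours with lipopolysaccharide (LPS, a bacterial mitogen) at 1 µg/ml (5 libraries, called activated). Every tissue sample went through negative magnetic selection for B cells, which keeps any cell the antibodies do not bind. The labels used here do not give the promoters of the transgenes or the ages of the mice. Nor do they say whether each control library stands for an animal of its own. In comparisons with controls, p-values rest on a spread estimated over tumor mice and control libraries together. The part of it between control libraries may be technical.

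Polycomb repressive complex 2 (PRC2) methylates histone H3 on lysine 27 through EZH2 or its paralog EZH1, bound to the core subunits EED and SUZ12; JARID2 is an accessory subunit that helps place it on chromatin. Polycomb repressive complex 1 (PRC1) holds a RING1 or RNF2 (RING1B) ubiquitin ligase for histone H2A with a PCGF partner such as BMI1, and its CBX subunits, CBX7 among them, read the methyl mark. KDM6B (JMJD3) and KDM6A (UTX) remove that mark. In the B cell lineage EZH2 is known for its high level in dividing germinal centre B cells.

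Library totals ran from 13328866 to 25045814 estimated counts, and levels are given as CPM (counts relative to the library total, scaled by the trimmed mean of M values, TMM). Plasma cell markers summed to 2690 to 40300 CPM in MLN tumors and 2290 to 37700 CPM in spleen tumors, against 3330 to 3860 CPM in quiescent cells. By this sum some tumor libraries showed no more plasma cell RNA than quiescent cells. By the mean log2 level of these markers only the spleen tumor of mouse 1610 (5.44) lay below the quiescent libraries (5.58 to 5.69). Activated libraries were at 5.12 to 5.26, below every tumor library. Of 24 mature B cell markers, 23 were lower in tumor mice than in quiescent cells (over all genes tested, 31.9% were lower and 36.8% higher). These 24 summed to 23400 to 24200 CPM in quiescent, 14200 to 15800 in activated, 2170 to 13900 in MLN tumor and 419 to 17300 in spleen tumor libraries. All 12 macrophage markers tested were higher in tumor mice than in quiescent cells, and none of the 12 was at 0 in every library of a group. Their summed level was 16.2 to 146 CPM in quiescent, 9.06 to 21.1 in activated, 383 to 2520 in MLN tumor and 192 to 2520 in spleen tumor libraries. Erythroid markers (9 of 9 higher in tumor mice than in quiescent cells) summed to 103 to 126 CPM in quiescent, 283 to 313 in activated, 106 to 1650 in MLN tumor and 271 to 4890 in spleen tumor libraries. Neutrophil markers (7 of 8 higher) summed to 393 to 425, 579 to 604, 59.5 to 1020 and 290 to 1940 CPM in the same order, and dendritic cell markers (5 of 6 higher) to 16.8 to 34.8, 16.9 to 21.8, 23.4 to 828 and 10.4 to 244 CPM. T cell markers (10 of 15 higher) summed to 277 to 297, 78.3 to 96.1, 43.3 to 862 and 47.4 to 291 CPM, and stromal markers (9 of 12 higher) to 345 to 429, 132 to 168, 190 to 940 and 109 to 985 CPM. Such a sum can be carried by a single gene. The neutrophil marker NCF1 averaged 415 CPM in quiescent cells, 583 in activated cells and 180 in tumor mice, and S100A8 averaged 0.449, 0.0985 and 140 CPM. The mean log2 level of erythroid markers was 1.42 to 1.99 in quiescent, 0.96 to 1.2 in activated and 1.71 to 8.2 in tumor libraries. ELANE, THEMIS, KEL, COL1A2, PDGFRA and CLEC9A were at 0 in all activated libraries and LUM in all quiescent ones; no marker was at 0 in all tumors of a site. The part of such cells in the differences between tumors and controls was not tested. In such bulk RNA, fewer cells of a type and less RNA per cell cannot be told apart. The 3 Y-linked genes tested summed to 348 to 364 CPM in quiescent and 0.504 to 0.913 CPM in activated libraries, so LPS and the sex of the mice cannot be told apart in that comparison. Tumor mice were mixed, and UTY, a Y-linked paralog of KDM6A, stood at 0.823 CPM in the MLN tumor and 5.4 CPM in the spleen tumor labelled as from mouse 1614.

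Promoter windows of 300 bases (250 before and 50 after the annotated start, RefSeq on GRCm38.p6) matched 9 of the 10 genes by symbol; KDM6B was not matched. They were searched on both strands for CACGTG, the E-box that MYC and related factors are known to bind, and for TTTGGCGC and TTTCCCGC, letters known for E2F factors; no motif overlaps another in the windows shown. Only EZH2, SUZ12 and BMI1 held a match, and they are shown with it in capitals. A match describes the letters only.
EZH2, chr6:47594981-47595280, minus strand: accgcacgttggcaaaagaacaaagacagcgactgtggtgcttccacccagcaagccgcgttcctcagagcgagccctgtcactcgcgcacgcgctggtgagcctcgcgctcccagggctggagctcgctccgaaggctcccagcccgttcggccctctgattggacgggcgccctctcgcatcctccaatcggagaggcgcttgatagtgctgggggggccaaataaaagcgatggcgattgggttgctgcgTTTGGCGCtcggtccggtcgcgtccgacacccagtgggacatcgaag
SUZ12, chr11:79992856-79993155, plus strand: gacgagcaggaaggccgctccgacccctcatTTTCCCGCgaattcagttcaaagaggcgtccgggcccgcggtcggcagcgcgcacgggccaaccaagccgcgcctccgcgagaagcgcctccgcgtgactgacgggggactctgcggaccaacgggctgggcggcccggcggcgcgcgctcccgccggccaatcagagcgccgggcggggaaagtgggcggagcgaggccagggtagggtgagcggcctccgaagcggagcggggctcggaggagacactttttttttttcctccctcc
BMI1, chr2:18676768-18677067, plus strand: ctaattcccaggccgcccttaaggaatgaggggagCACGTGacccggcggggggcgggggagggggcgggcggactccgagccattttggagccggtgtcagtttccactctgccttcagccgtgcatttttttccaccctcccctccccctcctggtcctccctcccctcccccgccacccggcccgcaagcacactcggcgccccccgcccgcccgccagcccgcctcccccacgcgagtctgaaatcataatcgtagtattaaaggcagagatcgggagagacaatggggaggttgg
The E2F letters began 3 bases after the start of EZH2 and 219 bases before that of SUZ12, and the E-box began 215 bases before that of BMI1. Over 32851 RefSeq promoter windows of this length, 1.56% held the E2F letters and 7.15% held the E-box.

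Activated cells had 2 of the 10 genes higher than quiescent cells, EZH2 and SUZ12, and 4 lower, EZH1, JARID2, RING1 and CBX7 (edgeR adjusted p under 0.05). A change with LPS means this difference throughout, in which culture and the Y-linked level differed as well. In that comparison 59.5% of all 11637 genes tested passed, 25.4% as higher and 34.1% as lower, and the median log2 change was -0.24 for the 10 genes and -0.15 for all genes. Against quiescent cells, tumor mice (the counts of a mouse's tumors summed, n = 8) had 2 of the 10 genes higher, EZH2 and BMI1, and 6 lower, EZH1, JARID2, RING1, RNF2, CBX7 and KDM6B. There 68.8% of all genes passed, 36.8% as higher and 31.9% as lower; the median log2 change was -0.61 for the 10 genes and 0.08 for all genes. Against activated cells, tumor mice had EZH1 and JARID2 higher and EZH2, EED, SUZ12, RNF2 and KDM6B lower, where 63.2% of all genes passed (36.2% higher, 27% lower), and the medians were -0.16 and 0.09. The number of the 10 genes called was thus 8 and 7 in the tumor comparisons, on backgrounds where most genes were called, and the comparisons share their samples.

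**Figure D1:**
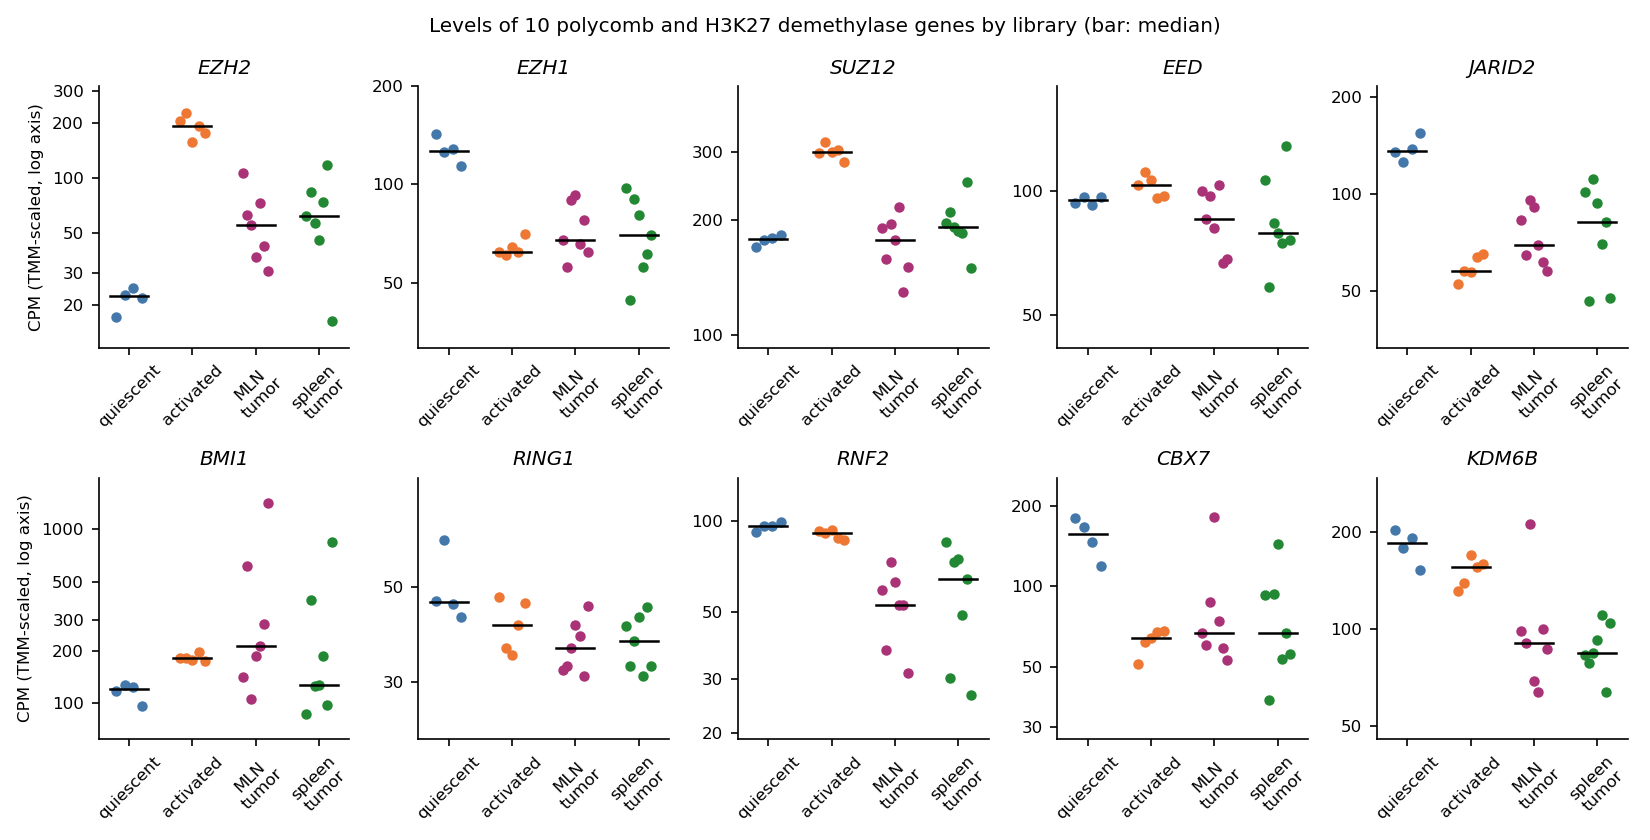
Level of each of the 10 genes in every library (TMM-scaled CPM, logarithmic vertical axis; each panel has its own range); points are libraries of quiescent cells (n = 4), activated cells (n = 5), MLN tumors (n = 7) and spleen tumors (n = 7), and bars are group medians. EZH2 sits between 17.2 and 25.0 CPM in quiescent cells and between 158 and 228 in activated cells, and BMI1 reaches 1420 CPM in a single MLN tumor.

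The share of calls that were increases depended on the scaling. Against quiescent cells 53.6% of called genes were higher in tumor mice with the scaling used here, 63.9% with upper-quartile scaling and 39.6% with quantile normalization. Against activated cells the shares were 57.2% here and 37.9% with quantile normalization. The median log2 change of all genes, 0.08 here, was 0.22 with upper-quartile scaling, so small changes of the 10 genes are read relative to it.

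EZH2, the catalytic subunit of PRC2 in dividing cells, differed most of the 10 genes between activated and quiescent cells. Its level was 17.2, 22.8, 25.0 and 22 CPM in the 4 quiescent libraries and 206, 228, 158, 192 and 177 CPM in the 5 activated libraries. The groups did not overlap, as held for 68% of all genes in this comparison, and the rise was 8.43-fold (log2 3.08 ± 0.32 SE, edgeR adjusted p = 5.20e-07). MLN tumors ran from 30.9 to 106 CPM with a median of 55.1, and spleen tumors from 16.4 to 118 CPM with a median of 61.4. Tumors thus lay between the control groups, except the spleen tumor of mouse 1616, which fell below all quiescent libraries. The mean over mice was 65.2 ± 25.2 CPM (SD, n = 8), 2.89-fold above quiescent cells (log2 1.53 ± 0.28, edgeR adjusted p = 2.06e-04) and 2.92-fold below activated cells (log2 -1.55 ± 0.24, edgeR adjusted p = 3.24e-05). No tumor mouse reached the level of any activated library, a separation found for 39.9% of all genes.

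Cell cycle genes are given beside EZH2 for the comparison with activated cells. MKI67, a marker of dividing cells, averaged 552 ± 147 CPM in tumor mice (SD, n = 8) and 327 ± 43.0 CPM in activated cells (SD, n = 5), a rise of log2 0.76 ± 0.17 (edgeR adjusted p = 0.00123). MCM3 and MCM4, also on the cell cycle list, had lower means in tumor mice, as EZH2 did. MCM3 averaged 166 ± 55.9 CPM in tumor mice and 355 ± 27.7 CPM in activated cells. MCM4 averaged 139 ± 41.3 and 291 ± 24.8 CPM. Of 33 cell cycle genes tested, 6 were higher in tumor mice than in activated cells, 9 were lower and 18 did not pass, beside 36.2% higher and 27% lower over all genes. The difference between EZH2 and these genes was itself not tested.

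EZH1, the paralog that is known to prevail in resting cells, had the opposite course. Quiescent libraries held 143, 126, 128 and 114 CPM, and activated libraries 62.0, 60.6, 64.3, 62.2 and 70.3 CPM. All activated libraries lay below all quiescent ones (2.09-fold lower, log2 -1.07 ± 0.11, edgeR adjusted p = 6.49e-07). MLN tumors had 56.0 to 92.9 CPM (median 67.7) and spleen tumors 44.3 to 97.4 CPM (median 70.1), again without reaching a quiescent library. No overlap with quiescent cells was seen in 47.5% of all genes. Tumor mice were 1.77-fold below quiescent cells (log2 -0.83 ± 0.10, edgeR adjusted p = 4.84e-06). Their excess over activated cells was small (log2 0.24 ± 0.10, edgeR adjusted p = 0.0384) and passed in only 13 of 27 alternative analyses, whose adjusted p ran from 0.00693 to 0.331; it failed without mouse 1610, 1612, 1613 or 1616, and without activated library 1, 2, 3 or 4.

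Divided by transcript length (GENCODE principal transcripts), the ratio of EZH2 to EZH1 was 0.181 to 0.294 in quiescent libraries and 3.7 to 5.66 in activated ones. In tumors it was 0.593 to 2.36 in the MLN (median 0.928) and 0.352 to 2.91 in the spleen (median 0.948). The median ratio was therefore close to equal levels at each site, but single tumors spread widely, with EZH2 ahead in some and EZH1 in others. The ratio combines changes already given and has no test of its own.

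**Figure D2:**
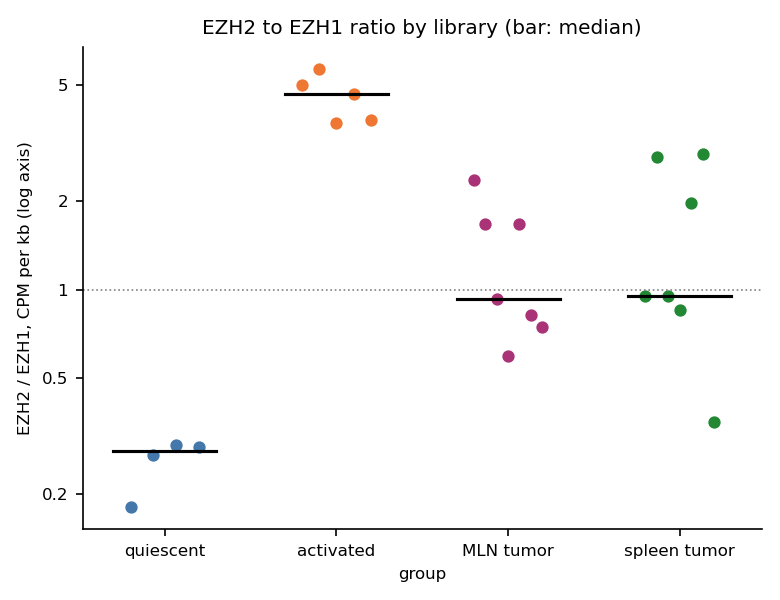
Ratio of EZH2 to EZH1 level, each in CPM per kilobase of transcript, in every library (logarithmic vertical axis; bars are group medians; the dotted line marks equal levels). Quiescent libraries stay at 0.294 or below, activated libraries at 3.7 or above, and tumors spread across the space between them from 0.352 to 2.91.

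The core partners of EZH2 moved less. SUZ12 was at 170, 177, 179 and 183 CPM in quiescent and 298, 319, 300, 304 and 283 CPM in activated libraries, a non-overlapping rise of 1.62-fold (log2 0.70 ± 0.08, edgeR adjusted p = 1.03e-06). MLN tumors held 130 to 216 CPM (median 177) and spleen tumors 150 to 251 CPM (median 192), around the quiescent level and below every activated library. Tumor mice were 1.58-fold below activated cells (log2 -0.66 ± 0.06, edgeR adjusted p = 3.33e-07). Against quiescent cells the log2 difference was 0.04 ± 0.07 (edgeR adjusted p = 0.634), and it passed only with upper-quartile scaling (0.18) or quantile normalization (0.30).

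EED, the PRC2 subunit that binds the methyl mark, differed little between groups. It averaged 98.3 ± 2.23 CPM in quiescent cells (SD, n = 4), 102 ± 6.02 CPM in activated cells (SD, n = 5) and 88.9 ± 9.79 CPM in tumor mice (SD, n = 8). With LPS the log2 change was 0.05 ± 0.09 (edgeR adjusted p = 0.629), and it passed in 2 of 19 alternatives. Single tumors ran from 58.4 to 128 CPM, so they spread around both control groups. The deficit against activated cells (log2 -0.20 ± 0.07, edgeR adjusted p = 0.0273) was lost in 7 of 27 alternatives, among them those without activated library 2 or 3. Against quiescent cells the log2 difference was -0.15 ± 0.08 (edgeR adjusted p = 0.111), with 0.00 and 0.01 under upper-quartile scaling and quantile normalization; without the tumors of mouse 1609 or 1615 it was -0.18 and passed.

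JARID2, like EZH1, was highest in quiescent cells. Quiescent libraries held 135, 126, 138 and 155 CPM and activated libraries 52.6, 57.9, 57.4, 63.9 and 65.5 CPM, without overlap. The drop was 2.44-fold (log2 -1.29 ± 0.15, edgeR adjusted p = 2.55e-06), the second largest of the 4 falls with LPS after CBX7. Tumors had 57.9 to 96.1 CPM in the MLN (median 69.7) and 46.8 to 112 CPM in the spleen (median 81.9), all below the quiescent libraries. Tumor mice were 1.75-fold below quiescent (log2 -0.81 ± 0.14, edgeR adjusted p = 1.01e-04) and 1.39-fold above activated cells (log2 0.48 ± 0.13, edgeR adjusted p = 0.00505). With the spleen tumors alone the second difference did not pass (log2 0.45, edgeR adjusted p = 0.0664).

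Among PRC1 genes, BMI1 stood apart by its spread. It was at 117, 127, 124 and 96.7 CPM in quiescent and 183, 182, 177, 197 and 175 CPM in activated libraries. These groups did not overlap, yet the log2 difference of 0.59 ± 0.55 did not pass in the joint fit (edgeR adjusted p = 0.371), whose spread includes the tumors; fitted on the control libraries alone it was 0.68 and passed (edgeR adjusted p = 1.13e-06). MLN tumors ran from 106 to 1420 CPM with a median of 214, and spleen tumors from 86.9 to 847 CPM with a median of 127. The high values were the MLN and spleen tumors of mouse 1616 (1420 and 847 CPM), the MLN tumor of mouse 1610 (616 CPM) and the spleen tumor of mouse 1611 (392 CPM), while the lowest tumors lay below the quiescent median.

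Tumor mice averaged 321 ± 371 CPM of BMI1 (SD, n = 8), an SD above the mean, and 2.66-fold more than quiescent cells (log2 1.41 ± 0.53, edgeR adjusted p = 0.026). The call was lost in 6 of 26 alternatives, including those without quiescent library 1, 3 or 4, with adjusted p between 0.00304 and 0.0737. Without mouse 1616 the log2 difference fell to 0.67, and it passed (edgeR adjusted p = 0.00304). Against activated cells it was 0.82 ± 0.47 (edgeR adjusted p = 0.138), and -0.02 without mouse 1616; without the spleen tumors of mice 1610, 1612 and 1615 it passed (log2 1.17, edgeR adjusted p = 0.0388).

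COMMD3, the protein-coding gene next to Bmi1 in RefSeq, was looked up after the BMI1 values were seen. It stood at 46.2 to 52.1 CPM in quiescent libraries and at 253 and 189 CPM in the MLN and spleen tumors of mouse 1616. It was 181 CPM in the MLN tumor of mouse 1610 and 108 CPM in the spleen tumor of mouse 1611, so the libraries high in BMI1 were high in its neighbour. COMMD3 was 1.81-fold higher in tumor mice than in quiescent cells (log2 0.85 ± 0.32, edgeR adjusted p = 0.0243). How reads were assigned to genes is not stated in the labels, and whether reads of the neighbours were shared was not tested.

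RNF2, the main H2A ubiquitin ligase of PRC1, was low in tumors. It was 91.8, 96.2, 96.0 and 99.3 CPM in quiescent and 92.5, 91.1, 93.6, 88.1 and 86.8 CPM in activated libraries, and the log2 difference between these groups was -0.15 ± 0.17 (edgeR adjusted p = 0.463). MLN tumors had 31.6 to 73.4 CPM (median 52.9) and spleen tumors 26.7 to 85.3 CPM (median 64.3). Every one of these tumor values lay below every control value. Tumor mice were 1.7-fold below quiescent (log2 -0.77 ± 0.15, edgeR adjusted p = 3.78e-04) and 1.53-fold below activated cells (log2 -0.62 ± 0.14, edgeR adjusted p = 0.00127). The second difference did not pass with the Y-linked level as a covariate (log2 -0.22, edgeR adjusted p = 0.535). It passed when only the 3 tumor mice with a low Y-linked level were compared (log2 -0.57, edgeR adjusted p = 4.22e-04). The mean log2 Y-linked levels of these mice were 1.22, 1.56 and 2.75, still above the 0.22 to 0.37 of activated libraries.

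RING1, the paralog of RNF2, changed little. Quiescent libraries had 46.2, 64.0, 45.7 and 42.5 CPM and activated ones 47.3, 36.1, 34.8, 40.8 and 45.9 CPM, with overlap. The log2 difference of -0.34 ± 0.12 (edgeR adjusted p = 0.0255) was lost in 10 of 19 alternatives, and without quiescent library 2 it was -0.19; it also failed without activated library 2, 3 or 4. Tumor libraries lay between 31.0 and 45.2 CPM, a narrow range. Tumor mice averaged 37.6 ± 3.25 CPM (SD, n = 8), 1.37-fold below quiescent cells (log2 -0.46 ± 0.11, edgeR adjusted p = 0.00202).

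CBX7, the chromodomain subunit that reads the H3K27 mark, fell furthest with LPS. Quiescent libraries held 180, 166, 147 and 119 CPM and activated libraries 51.2, 61.8, 64.2, 67.5 and 67.9 CPM, without overlap. The drop was 2.56-fold (log2 -1.35 ± 0.25, edgeR adjusted p = 2.39e-04). MLN tumors ran from 53.0 to 182 CPM (median 67.2) and spleen tumors from 37.7 to 144 CPM (median 67.0), and the top value at each site came from mouse 1613. The other tumors were at 93.4 CPM or less, below the quiescent range. Tumor mice were 1.93-fold below quiescent cells (log2 -0.95 ± 0.23, edgeR adjusted p = 0.00164), and log2 -1.17 without mouse 1613. Against activated cells the log2 difference was 0.41 ± 0.22 (edgeR adjusted p = 0.113); it was 0.19 without mouse 1613, and it passed at 0.69 among the 3 mice with a low Y-linked level, of which 1613 is a member.

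KDM6B, the inducible H3K27 demethylase, was lower in tumors than in either control group. Quiescent libraries had 203, 178, 192 and 152 CPM and activated ones 131, 139, 169, 156 and 159 CPM, which overlapped (log2 -0.33 ± 0.17, edgeR adjusted p = 0.105). This difference with LPS passed in 2 of 19 alternatives. MLN tumors had 63.5 to 211 CPM (median 90.4) and spleen tumors 63.5 to 110 CPM (median 84.0). Only the MLN tumor of mouse 1611, at 211 CPM, reached the controls; its spleen tumor had 78.4 CPM. Tumor mice were 1.92-fold below quiescent (log2 -0.94 ± 0.15, edgeR adjusted p = 6.93e-05) and 1.53-fold below activated cells (log2 -0.61 ± 0.14, edgeR adjusted p = 0.00147). With MLN tumors alone the latter did not pass (log2 -0.55, edgeR adjusted p = 0.0519), and among the 3 mice with a low Y-linked level it was log2 -0.90.

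**Figure D3:**
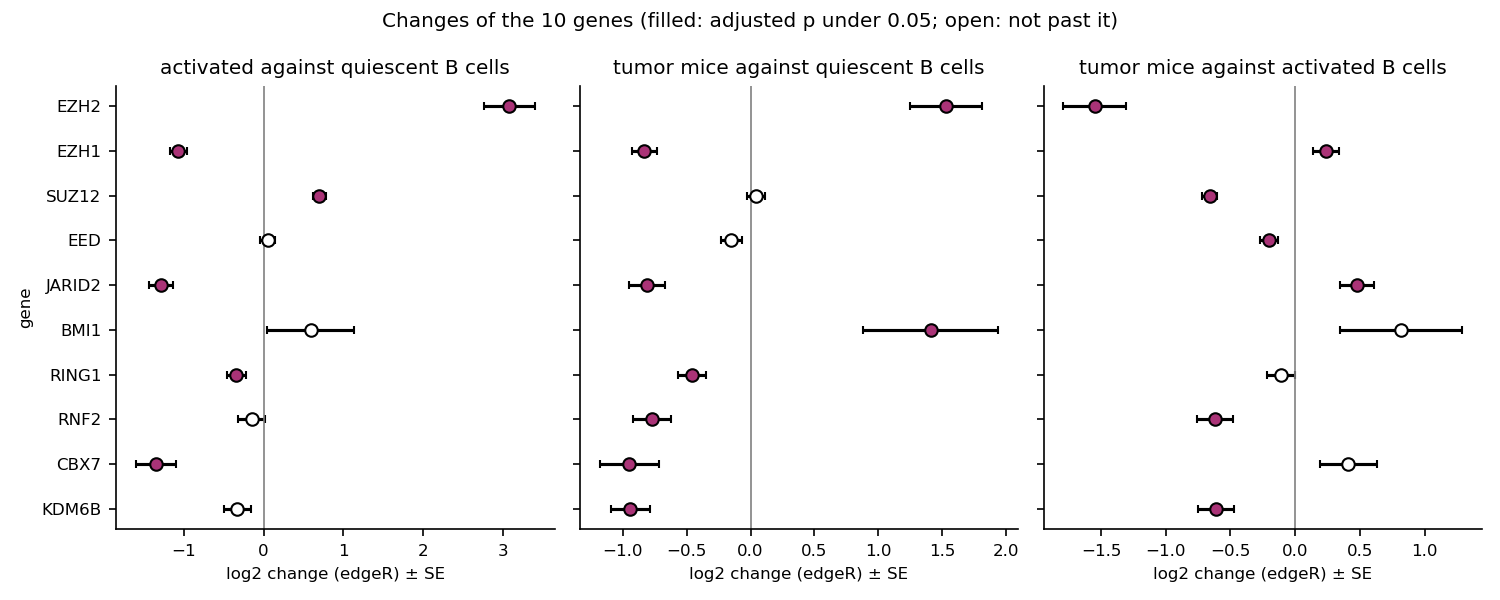
Log2 change of each gene in 3 comparisons (points). Bars are ± SE, derived from the edgeR F statistic. Filled points passed an adjusted p of 0.05 and open points did not. The panels have separate horizontal ranges. EZH2 is at 3.08, 1.53 and -1.55 from left to right, and the BMI1 bar is the widest, with an SE of 0.53 against quiescent cells.

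Ranked by level per kilobase, the order of the genes differed between groups, read as a description. In quiescent cells EED (47.6 CPM per kb), CBX7 (46.9) and SUZ12 (42.1) led and EZH2 was last (8.11). In activated cells EZH2 (68.5) and SUZ12 (68.4) shared the top and JARID2 (9.85) was last. In tumor mice the mean of BMI1 (89.3) led through mouse 1616, ahead of SUZ12 (43.2) and EED (43.0), and JARID2 was last (13.7).

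The site of the tumor was compared over 7 MLN and 7 spleen tumors. None of the 10 genes passed (edgeR), and 0% of the 11637 genes tested did (0% higher, 0% lower). At an unadjusted threshold of 0.05 edgeR gave 511 genes and none of the 10. DESeq2 called 20 genes, none of them among the 10. The widest interval belonged to BMI1 (log2 0.63 ± 0.67 SE, MLN over spleen), and the other 9 genes lay between -0.18 and 0.21. Such intervals do not show that the sites were alike.

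Within a mouse the sites could differ more than that. BMI1 was higher in the MLN tumor in 5 of 6 mice, with log2 ratios from -1.89 to 2.83. Mouse 1610 had 616 CPM in the MLN and 86.9 CPM in the spleen, mouse 1615 had 284 and 97.1 CPM, and mouse 1611 went the other way with 106 and 392 CPM. COMMD3 took the same direction as BMI1 in 6 of 6 mice, and MYC, the oncogene named in the transgene, in 5 of 6, the exception being mouse 1616. MYC was 1740 and 440 CPM in the MLN and spleen tumors of mouse 1610, 421 and 1240 CPM in those of mouse 1611, and 1140 and 312 CPM in those of mouse 1615. EZH2 took the direction of BMI1 in 3 of 6 mice. Mouse 1611 also had log2 ratios of 1.28 for RNF2, 1.21 for CBX7, 1.04 for JARID2 and 1.01 for EZH1, the highest of the 6 mice for each. The tumors of a mouse could also differ in make-up. Mean log2 levels in the MLN and spleen tumors of mouse 1611 were 8.72 and 3.26 for mature B cell markers and 6.04 and 8.18 for plasma cell markers. Plasma cell markers were at 9.16 and 5.44 in those of mouse 1610. The part of make-up in the differences between sites was not tested.

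**Figure D4:**
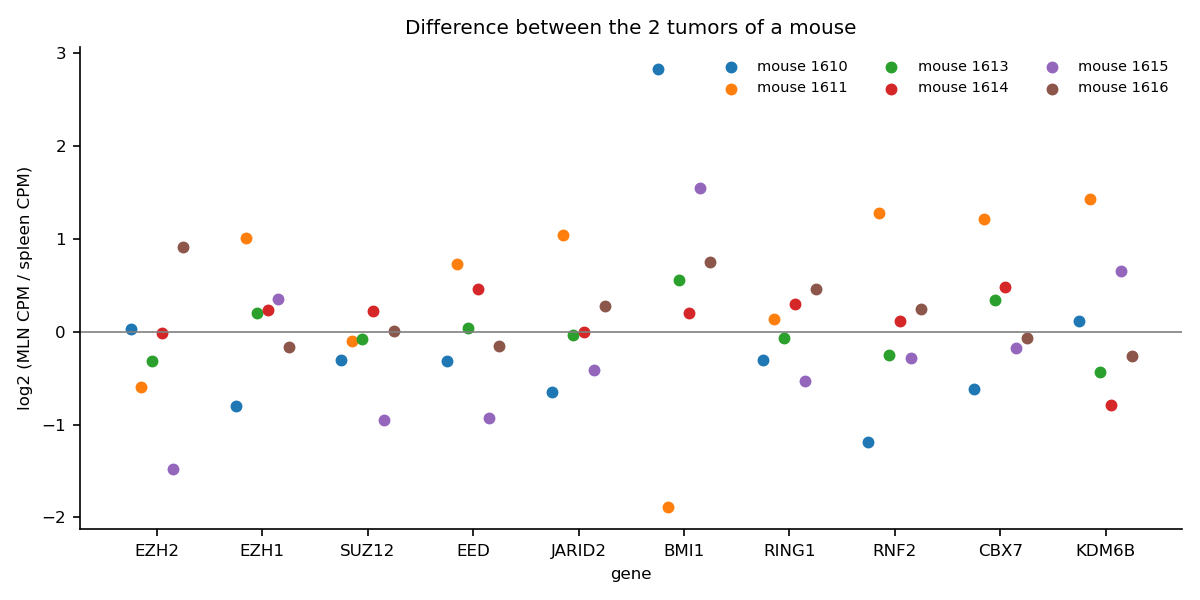
Log2 ratio of the MLN tumor level to the spleen tumor level of the same mouse (points; 6 mice by colour) for the 10 genes. BMI1 spans -1.89 to 2.83, SUZ12 only -0.95 to 0.22, and mouse 1611 is highest for RNF2, CBX7, JARID2, EZH1 and KDM6B and lowest for BMI1.

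Across the 8 tumor mice the 10 genes were set against 4 gene programs (the mean log2 level of cell cycle, plasma cell, mature B cell and macrophage genes), 40 relations in all, of which 5 passed an exact permutation test of Pearson's r after Benjamini-Hochberg adjustment. EZH2 rose with the cell cycle genes (r = 0.88, exact permutation p = 0.00166, adjusted p = 0.0222; rho = 0.95, adjusted exact p = 0.0152). RING1 went down as they went up (r = -0.91, adjusted exact permutation p = 0.0224; rho = -0.90, adjusted exact p = 0.0456). RNF2 (r = 0.98, adjusted exact permutation p = 0.0139; rho = 0.98) and JARID2 (r = 0.88, adjusted exact permutation p = 0.0224; rho = 0.95) followed the mature B cell genes, each with an adjusted exact p of 0.0152 for rho. BMI1 followed the plasma cell genes by r (r = 0.93, adjusted exact permutation p = 0.0213), while its rank correlation of 0.83 did not pass (adjusted exact p = 0.103).

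Mouse 1616 held an extreme value in several of these relations. Without the pair of mice farthest from the median of the program, r was 0.85 for EZH2, -0.82 for RING1, 0.88 for RNF2, 0.87 for JARID2 and 0.74 for BMI1. Over the 7 MLN tumors alone none of the 40 relations passed, with r of 0.79 for EZH2, -0.39 for RING1, 0.76 for RNF2, 0.89 for JARID2 and 0.94 for BMI1. Over the 7 spleen tumors alone 3 passed, those of EZH2 (0.89), JARID2 (0.95) and BMI1 (0.96), and r was 0.95 for RNF2 and -0.06 for RING1. The relation of RING1 with the cell cycle genes therefore did not hold within either site. No SUZ12 or EED relation passed; that of SUZ12 with the plasma cell genes missed it (r = -0.87, adjusted exact permutation p = 0.0541).

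**Figure D5:**
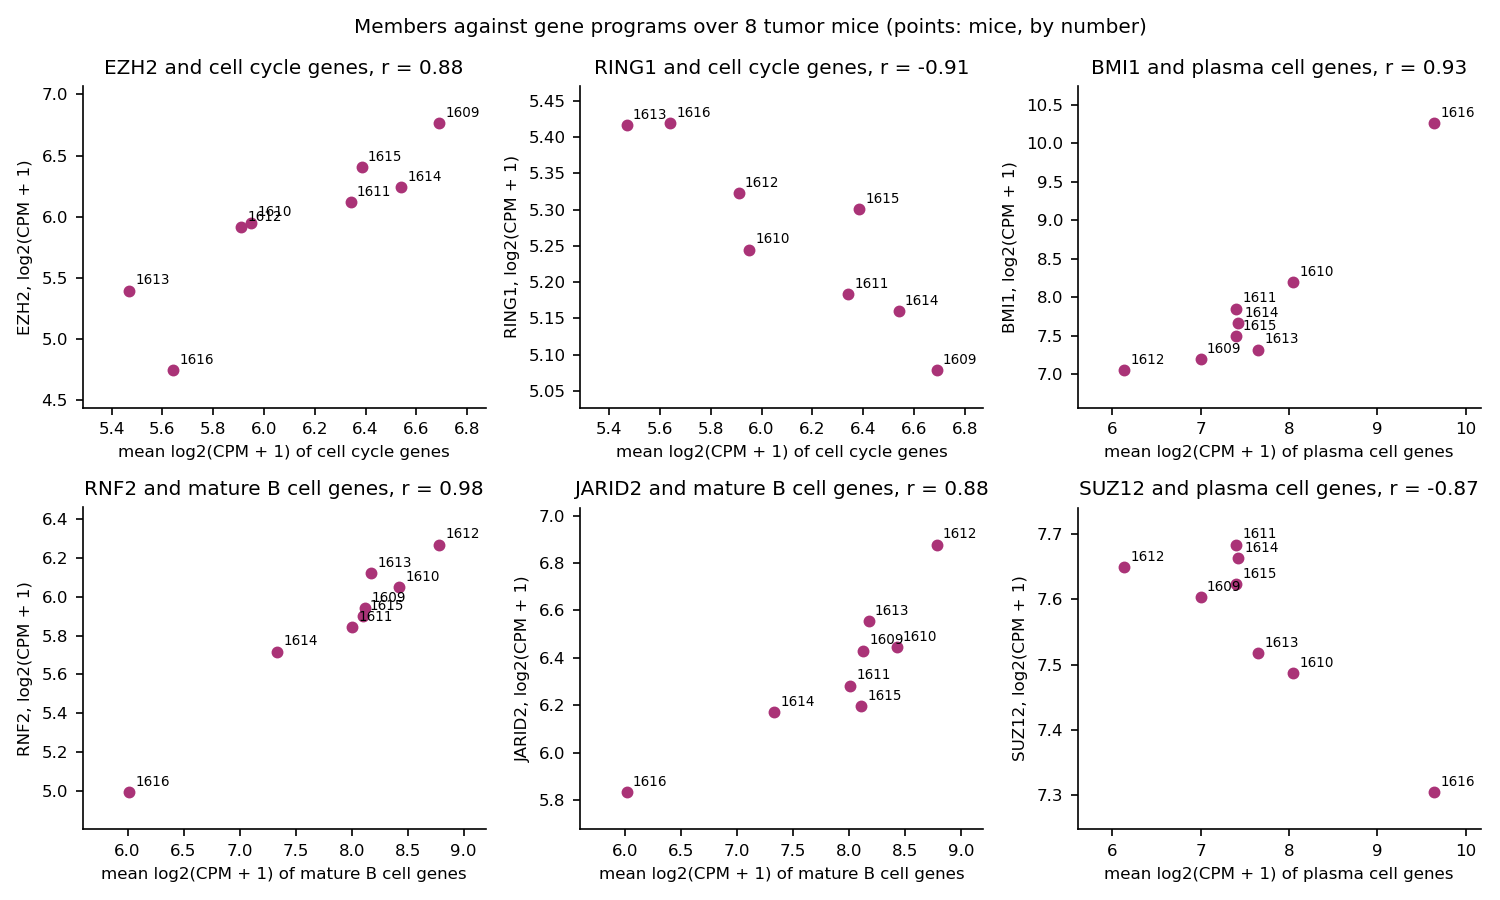
Level of 6 of the genes in log2(CPM + 1) against the mean log2(CPM + 1) of a gene program in 8 tumor mice (points, labelled by mouse; 6 panels, axes not from 0). EZH2 climbs with the cell cycle genes (r = 0.88), RING1 descends (r = -0.91), and mouse 1616 lies at the edge of the panels for BMI1, RNF2, JARID2 and SUZ12.

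By likeness of pattern over the 8 tumor mice, given as a description, genes closest to EZH2 included MCM3 (r = 0.995), BAK1 (0.992), MCM4 (0.991) and SUV39H1 (0.990). MCM3 and MCM4 are subunits of the replicative helicase and SUV39H1 methylates histone H3 on lysine 9; both helicase genes belong to the cell cycle list. For EZH1 they were METTL18 (0.975), GRK6 (0.973), CDC37L1 (0.968), EARS2 (0.967) and FILIP1L (0.967). For CBX7 they were the shared profile of the immunoglobulin lambda constant genes (0.979), GNG7 (0.960), CHD8 (0.959), TTBK1 (0.956) and SFI1 (0.956), and for KDM6B they were RETREG2 (0.966), FOSL1 (0.943), the shared profile of the MRGPRX genes (0.940), ENO2 (0.938) and HDC (0.935). The points share libraries and depth.

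Of 51 further genes in 5 lists of polycomb subunits, demethylase partners and H2A deubiquitinases, 44 were tested. Against quiescent cells 10 were higher in tumor mice, 21 lower and 13 did not pass, beside 36.8% higher and 31.9% lower over all genes, with a median log2 change of -0.29 beside 0.08. Against activated cells 8 were higher and 23 lower (median -0.30 beside 0.09), beside 36.2% higher and 27% lower over all genes. With the Y-linked level as a covariate these counts were 4 and 12, where 2599 and 1842 of all genes were called, and with spleen tumors alone 5 and 15, where 3447 and 2236 were. With LPS 17 rose and 16 fell (median 0.01 beside -0.15), beside 25.4% and 34.1% over all genes. With spleen tumors alone against quiescent cells 5 were higher and 17 lower, where 3683 and 2516 of all genes were.

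Among PRC2 partners the largest move was that of PHF1, an accessory subunit that reads a methyl mark of active genes. It went from 301 ± 36.2 CPM in quiescent cells (SD, n = 4) to 60.6 ± 3.97 in activated cells (SD, n = 5; log2 -2.31 ± 0.19, edgeR adjusted p = 4.01e-08). It was 92.0 ± 25.5 CPM in tumor mice (SD, n = 8; log2 -1.71 ± 0.16 against quiescent cells, edgeR adjusted p = 4.73e-07). PHF19, its paralog, was higher in tumor mice than in quiescent cells (log2 0.93 ± 0.32, edgeR adjusted p = 0.0184), and LCOR was lower (log2 -1.14 ± 0.13). The histone-binding subunit RBBP7 rose with LPS from 153 ± 8.01 to 407 ± 28.7 CPM (SD, n = 4 and 5; log2 1.41 ± 0.14, edgeR adjusted p = 3.78e-07). At 202 ± 38.2 CPM in tumor mice (SD, n = 8) it was below activated cells (log2 -1.01 ± 0.11, edgeR adjusted p = 1.73e-06), as were EZH2 and SUZ12. RBBP4 rose with LPS by log2 0.56 ± 0.11 and MTF2 by 0.40 ± 0.14, and in tumor mice they did not pass against quiescent cells (log2 0.05 and 0.03).

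CBX6 and CBX2, other CBX subunits of PRC1, were higher in tumor mice than in quiescent cells, where CBX7 was lower. CBX6 was at 29.4 ± 6.96 CPM in tumor mice (SD, n = 8), 9.63 ± 2.53 in quiescent and 10 ± 2.18 in activated cells (log2 1.61 ± 0.22 and 1.55 ± 0.20, edgeR adjusted p = 1.53e-05 and 6.47e-06). CBX2 rose with LPS (log2 1.42 ± 0.31) and was higher in tumor mice than in quiescent cells (log2 1.21 ± 0.29). CBX8 was higher in tumor mice than in activated cells (log2 0.76 ± 0.20) but did not pass against quiescent cells (log2 -0.14 ± 0.20). PHC1, a scaffold subunit of canonical PRC1, was below quiescent cells (log2 -1.18 ± 0.18). In variant PRC1, KDM2B rose with LPS (log2 1.11 ± 0.09), and PCGF5 (log2 -1.12 ± 0.11) and USP7 (log2 -1.03 ± 0.09) were lower in tumor mice than in activated cells; all values of this paragraph called higher or lower passed the edgeR test.

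Around KDM6B, the X-linked demethylase KDM6A was lower in tumor mice than in activated cells (log2 -0.51 ± 0.18, edgeR adjusted p = 0.0187). Tumor mice ran from 59.8 to 125 CPM (median 69.2) and overlapped activated libraries at 104 to 132 CPM. Activated libraries had almost no Y-linked RNA and tumor mice were mixed, and the part of sex in this KDM6A difference was not tested. The log2 difference of KDM6A between tumor mice and quiescent cells was -0.16 ± 0.19 (edgeR adjusted p = 0.481). UTY cannot be told apart from the sex of the mice: its log2 change was -7.31 with LPS and 6.33 in tumor mice against activated cells. KMT2C, a methyltransferase that partners KDM6A, fell with LPS from 478 ± 6.80 to 186 ± 22 CPM (SD, n = 4 and 5; log2 -1.36 ± 0.18, edgeR adjusted p = 6.59e-06). Of the H2A deubiquitinase genes, BAP1 was slightly lower in tumor mice than in quiescent cells (log2 -0.29 ± 0.05, edgeR adjusted p = 1.28e-04) and ASXL1 slightly higher (log2 0.19 ± 0.06, edgeR adjusted p = 0.0076).

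Of a list of 8 tested genes known as polycomb targets in B cells, 6 were higher in tumor mice than in quiescent cells and 1 was lower, beside 36.8% and 31.9% of all genes. CDKN1A, a cell cycle inhibitor, was at 50.3 ± 31.6 CPM in tumor mice (SD, n = 8) and 2.81 ± 0.901 CPM in quiescent cells (SD, n = 4; log2 4.15 ± 0.54, edgeR adjusted p = 9.56e-06). With LPS it was 19.8 ± 0.907 CPM (SD, n = 5), log2 2.80 ± 0.52 above quiescent cells. PRDM1, the plasma cell regulator, was at 61.0 ± 42.5 against 10.1 ± 1.67 CPM (log2 2.60 ± 0.45, edgeR adjusted p = 1.24e-04), and IRF4 did not pass (log2 0.63 ± 0.38, edgeR adjusted p = 0.153). CDKN1B was lower (log2 -1.0 ± 0.10, edgeR adjusted p = 8.64e-07). The list mixes genes of the plasma cell program with cell cycle inhibitors, and its members were not compared with binding or methylation data. Of 39 HOX genes, the classic polycomb targets, only HOXB3 and HOXB4 reached the level needed for testing, and neither passed in any of the comparisons.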

How the data were processed

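Per the labels' protocols, RNA was extracted with an RNeasy kit and made into TruSeq stranded total RNA libraries. The submitters' processing notes name Trim Galore 0.4.0, DESeq2 and the build GRCm39; the quantifier and the route to human symbols are details not given in the sources used here. Though the deposited values are named TPM, they were not whole and summed to 13328866 to 25045814 per library, so they were treated as estimated counts of the authors' own making and rounded to whole counts.

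Of 61651 entries, 21282 had values and 17047 were above 0; identical entries were merged into 15881 profiles, and of several under a name the highest mean was kept. The 11637 genes reaching 1 CPM in 4 or more libraries were tested with edgeR 4.0.16 (quasi-likelihood, TMM, R 4.3.3), 2-sided, with Benjamini-Hochberg adjustment over all of them at 0.05. The 8 tumor mice (counts of a mouse summed), 5 activated and 4 quiescent libraries shared a fit; MLN and spleen tumors were fitted over 14 libraries. The SE of an edgeR log2 change was derived as its absolute value divided by the square root of the F statistic. Per-library CPM were scaled over the 23 libraries and means ± SD over mice and control libraries, so they differ slightly. Alternatives used limma 3.58.1 on log2(CPM + 1) or log2(CPM + 5), DESeq2 1.42.0, other scalings and filters, single sites, a Y-linked covariate and left-out samples; 2 that split mice by the Y-linked level (mean log2 above or below 4) were chosen after seeing the data. The code was tested on simulated data.

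The 10 genes and the gene lists were chosen with earlier results of these data known. Besides the 10, the text names the 3 largest rises and 3 largest falls among polycomb genes past the threshold in each comparison (at 5 CPM or more) and a set of named subunits; CDKN2A, PCGF2 and 6 other listed polycomb genes were not analysed here. A few genes the rule names are not reported here. Equal numbers of MLN and spleen tumors mark a mouse, per the labels' series design. Deviations of such pairs correlated at -0.49 to 0.72. Only in mouse 1616 did the MLN tumor correlate best with the spleen tumor of its own number. Estimated counts carry counting error that depth limits: the lowest of the 10 genes had 163.0 counts in a library.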

Additional observations from a re-analysis of the deposited data

Results flagged for a closer look

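In 7 of 50 sets of a gene and a group, a single sample stood far from the others by the gap test of Dixon, which flags about 1 in 20 groups by chance. The sets are not independent, since a mouse enters through each tumor and through its sum. BMI1 was far above the rest in mouse 1616, with 1420 CPM in the MLN tumor, 847 CPM in the spleen tumor and 1230 CPM in the summed counts. CBX7 was far above the rest in mouse 1613, with 182 CPM in the MLN tumor and 164 CPM in the summed counts. KDM6B was far above the rest in mouse 1611, with 211 CPM in the MLN tumor and 159 CPM in the summed counts.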

How the results depend on the processing

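Differences that kept their direction and call in all alternatives run were those of EZH2, EZH1, JARID2, RING1, RNF2, CBX7 and KDM6B against quiescent cells, of EZH2 and SUZ12 against activated cells, and of EZH2, SUZ12, EZH1, JARID2 and CBX7 with LPS. Of the 10 genes, 4 were called against activated cells with spleen tumors only (7 in the analysis reported), and all genes called there came to 4441 with the Y-linked covariate (7351 in the analysis reported). DESeq2 called 20 genes between sites. The relations with programs that passed were 0 with MLN tumors only and 3 with spleen tumors only. Log2 differences changed sign for EED against quiescent cells (0.00 upper quartile, 0.01 quantile), SUZ12 against quiescent cells (-0.03 MLN only, -0.04 without the spleen tumors of mice 1610, 1612 and 1615), BMI1 against activated cells (-1.11 Y-linked covariate, -0.27 in mice with a low Y-linked level), RING1 against activated cells (0.01 Y-linked covariate) and, between sites, EED (0.00 upper quartile and limma, 0.02 quantile) and JARID2 (0.02 with the mouse as a block). The cause was not tested. Leaving out each sample gave ranges across 0 for BMI1 against activated cells (-0.02 to 0.95) and, between sites, for BMI1 (-0.04 to 1.35), CBX7 (-0.22 to 0.32), EED (-0.08 to 0.09), EZH1 (-0.05 to 0.12), EZH2 (-0.39 to 0.01), JARID2 (-0.17 to 0.02), KDM6B (-0.07 to 0.30) and RING1 (-0.08 to 0.02). It left 7 to 9 of the 10 genes called against quiescent cells, 5 to 7 against activated cells and 5 to 6 with LPS. With the mouse as a block, 0 genes passed between sites. Control libraries share only a number (correlations of deviations -0.018 to 0.0025, none best with its own number). A replicate block, fitted on the control libraries alone without activated library 5, gave 8 of the 10 genes with LPS. All control libraries without the block also gave 8 (6 in the joint fit). With LPS, BMI1, EED and KDM6B were not called in the joint fit but each passed in 2 of 19 alternatives. RNF2 passed in none, and the call of RING1 was lost in 10. Few control libraries, tumors with varied marker levels and a spread shared across groups limit every call.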
